A study of Mus musculus with 6 samples.

Results

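The MYC, MAX and MXD network was described here through 10 genes, chosen by symbol from the 21878 rows listed for each library: the activating paralogs Myc, Mycn and Mycl, their shared partner Max, the repressing members Mxd1, Mxd3, Mxd4, Mxi1 and Mnt, and the parallel hub Mlx. The libraries came from HSCs, gated as Lineage- Sca-1+ c-Kit+ Flt3- CD34- bone marrow cells of WT C57BL/6 mice, which carried no engineered allele. The 3 control libraries came from mice given vehicle, and the 3 IGF1 libraries from mice at day 1 after recombinant mouse IGF1, given under the skin at 200 µg/kg. The age of the mice and the number of animals behind a library are not given in the sources used here, so a p-value measures only the spread between these libraries. The extraction label also names IR mice; the groups followed the treatment label, which gives control or IGF-1.

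MYC proteins activate transcription only after pairing with MAX, and the pair binds the E-box CACGTG in front of genes for ribosome building, nucleotide synthesis and cell growth. MXD proteins, MXI1 and MNT compete for the same MAX and the same E-boxes, but bring the SIN3 and histone deacetylase corepressor complex, so that the balance between the classes, rather than a single member, is thought to set the output. In blood stem cells, MYC is known for its part in the balance between self-renewal and differentiation and in leaving quiescence, Mycn overlaps with Myc in stem cell survival and growth, and MXD proteins are known for their rise as progenitors stop dividing and differentiate.

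The libraries held between 11206746 and 15973309 reads on the listed genes. Levels are given in FPKM, a read count scaled to gene length and library depth, so that levels of different genes can be set side by side. Control replicate 2 stood apart from the other controls: on the first principal component, which held 93.2% of the variance, control replicates 1 and 3 lay at -64.7 and -64.8, control replicate 2 at 17.8 and the IGF1 libraries between 36.6 and 37.8. Results on the members are therefore given with and without this library, whose label was kept. Of the HSC markers, Procr lay between 11.5 and 18.7 FPKM and Hlf between 8.88 and 11.8 FPKM over the libraries, and 17 of 20 HSC genes passed the filter of at least 1 FPKM in at least 3 libraries, while Hoxb5 stayed at or under 0.691 FPKM and Mpo, an enzyme of myeloid granules, lay between 1613 and 1705 FPKM.

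A gene was called changed where it passed a fold change over 2 and an adjusted p under 0.05 in limma, with Benjamini-Hochberg adjustment over all genes tested. Markers of other cell types moved with the same split. A summed level was taken over 11 B-lineage genes, of which 8 passed the filter and none was at 0 throughout. It was between 128 and 129 FPKM in control replicates 1 and 3 and 509.7 FPKM in control replicate 2. After IGF1 it was between 486 and 508 FPKM. The defining gene Pax5, under the filter, was at 0.0155, 0.582 and 0.0926 FPKM in control replicates 1, 2 and 3. Its level after IGF1 was 0.351, 0.406 and 0.395 FPKM. None of the B-lineage genes was called from all libraries, and 5 were called higher without control replicate 2. The sum of 19 neutrophil and monocyte genes (16 past the filter, 4 of them called lower) lay between 3719 and 5849 FPKM in control and between 5870 and 5907 FPKM after IGF1, with Ly6g at 0 in control replicate 2 and all IGF1 libraries. This sum ran against most of its genes: Elane, Prtn3 and Ctsg had higher levels after IGF1 than in control replicates 1 and 3, while 12 of the 16 tested had a log2 fold change below 0 (median -0.48), and 3 were called higher and 7 lower without control replicate 2. The sum of 9 megakaryocyte and platelet genes (7 past the filter, 2 called higher, and 4 without control replicate 2) lay between 60.9 and 82.4 FPKM in control and between 107 and 117 FPKM after IGF1, with Gp6 at 0 in every library. Of the remaining lists, 8, 4 and 3 genes passed the filter and none was called from all libraries (2 erythroid genes lower and 1 T and NK gene higher without control replicate 2): the sums of 12 erythroid genes lay between 371 and 522 FPKM and between 271 and 287 FPKM, those of 10 T and NK genes between 389 and 812 FPKM and between 804 and 821 FPKM, and those of 10 stromal and endothelial genes between 26.3 and 51.4 FPKM and between 30.9 and 31.6 FPKM, in control and IGF1. Nkg7 alone, at 356 to 787 FPKM, made up most of the T and NK sum, and Cd3e stayed at or under 0.206 FPKM. The part of these markers in the differences between network members was not tested, and in bulk RNA a lower share of a cell type and less RNA per cell cannot be told apart.

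Of the 10 members, 9 passed this filter and were tested, as 10449 genes were. Of these 9 members, Mycn was called, as lower, and none was called higher. Over all genes tested, 6.61% were called, 1.98% as higher and 4.63% as lower, and the median log2 fold change was -0.18. Without control replicate 2, 6 of the 9 members were called, 3 higher (Mxd3, Mxd4, Mnt) and 3 lower (Myc, Mycn, Mxi1), beside 32.9% of all genes, 12.3% as higher and 20.6% as lower, with a median of -0.24. The levels of the groups did not overlap for 6 of the 9 members, a share near that of all genes, of which 59.4% did not overlap.

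**Figure D1:**
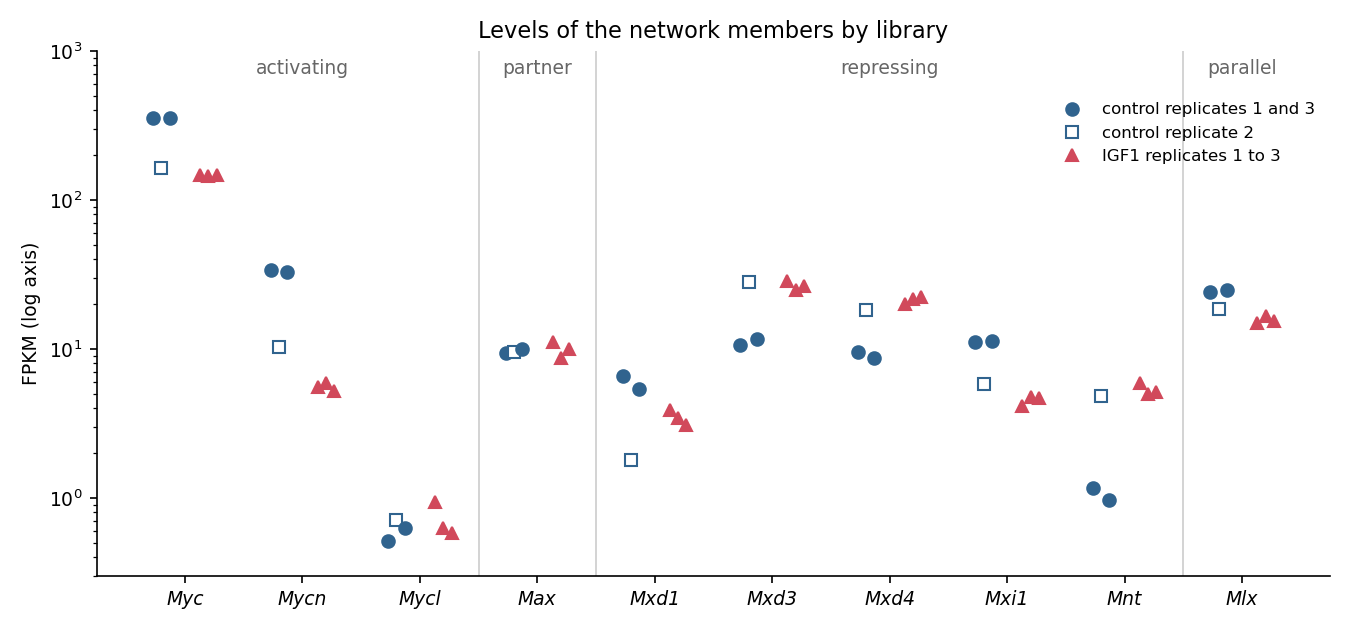
FPKM of each member (log axis) in the 3 control libraries (circles for replicates 1 and 3, an open square for replicate 2) and the 3 IGF1 libraries (triangles). Myc lies above every other member in each library, and the open square sits near the triangles for Myc, Mxd3 and Mnt but between the groups for Mycn.

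Among the activating members, Mycn showed the clearest difference. Mycn, a paralog that can stand in for Myc in stem cells and lies at chr12:12936093-12941914 on the minus strand (GRCm38), was at 33.7, 10.3 and 32.9 FPKM in the 3 control libraries (replicates 1, 2 and 3, the order used throughout) and at 5.56, 5.85 and 5.20 FPKM after IGF1. Every IGF1 library was below every control library, including control replicate 2, which lay between the groups. The mean level was 25.6 ± 13.3 FPKM in control and 5.54 ± 0.327 FPKM after IGF1 (SD, n = 3 each), a log2 fold change of -1.86 on the log2(FPKM + 1) scale (SE 0.45, limma adjusted p = 0.0443). Without control replicate 2 the log2 fold change of Mycn was -2.39 (SE 0.06, limma adjusted p = 2.0e-10), a 6.01-fold higher level in the other controls. The call was lost when any other single library was left out, with adjusted p values between 0.152 and 0.164 and log2 fold changes between -1.89 and -1.58. Mycn rested on 172 to 1402 reads a library.

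Myc was the most abundant member in each library. Myc (chr15:61985391-61990374, plus strand, GRCm38), the founding member of the family, was at 352, 163 and 351 FPKM in control and at 146, 143 and 146 FPKM after IGF1. The IGF1 libraries had a coefficient of variation of 1.06%, and control replicate 2 lay just above them. The log2 fold change of Myc was -0.90 (SE 0.32), which was not called (limma adjusted p = 0.0704), and the exact permutation test gave p = 0.1, the smallest that 3 against 3 libraries allow, as it did for Mycn, Mxd4, Mxi1, Mnt and Mlx. Myc was called lower without control replicate 2, with a log2 fold change of -1.27 (SE 0.03, limma adjusted p = 6.0e-11), but not when 75th percentile scaling was also used (-0.92). Over all settings tried the value lay between -1.88 and -0.65. By mean FPKM, Myc ranked 323rd of the genes tested in control and 719th after IGF1.

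Mycl, the third paralog, known from neural and dendritic cells, was scarcely expressed. Its level was 0.513, 0.712 and 0.623 FPKM in control and 0.939, 0.625 and 0.584 FPKM after IGF1, from 31 to 51 reads a library, and it was not tested. The groups overlapped. Myc alone therefore made up between 91.1% and 93.7% of the activating class in control and between 95.7% and 96.2% after IGF1, while the share of Mycn was between 5.91% and 8.72% in control and between 3.43% and 3.90% after IGF1. The level of Mycn relative to that of Myc was 0.0957, 0.0631 and 0.0936 in control and 0.0380, 0.0408 and 0.0357 after IGF1, so the ratio within the class was also lower in each IGF1 library.

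Max, the obligate partner of both classes, showed the smallest difference of the members tested in the fit of all libraries. Max (chr12:76937269-76962201, minus strand, GRCm38) was at 9.40, 9.49 and 10.04 FPKM in control and 11.18, 8.72 and 9.9995 FPKM after IGF1. The groups overlapped, and for Max control replicate 2 lay among the other controls. The log2 fold change was 0.04 (SE 0.13, limma adjusted p = 0.811), or 0.22 above the median of all genes tested, and turned to -0.04 without IGF1 replicate 1. With quantile normalization it was 0.35 and, with quantile normalization and without control replicate 2, 0.45 (limma adjusted p = 0.0013). The summed level of the activating members was 41.1, 18.4 and 38.3 times that of Max in control and 13.7, 17.2 and 15.1 times after IGF1.

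The repressing members moved in both directions. Mnt (chr11:74830920-74845725, plus strand, GRCm38), the widely expressed antagonist that holds MYC activity in check in dividing as well as resting cells, was at 1.16, 4.81 and 0.973 FPKM in control and at 5.87, 4.97 and 5.14 FPKM after IGF1. Each IGF1 library lay above each control library, with control replicate 2 next to the lowest IGF1 library. Mnt had a log2 fold change of 1.11 (SE 0.42, limma adjusted p = 0.0804), not called. It was called higher without control replicate 2, at 1.61 (SE 0.09, limma adjusted p = 4.4e-08), and the level after IGF1 was 4.99 times that of the other controls. Mnt rested on 102 to 473 reads a library.

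Mxd3 and Mxd4 were the most abundant repressing members after IGF1. Mxd3 (chr13:55325168-55329823, minus strand, GRCm38), the member that is known from cells in S phase, was at 10.6, 28.0 and 11.7 FPKM in control and at 28.3, 24.7 and 26.5 FPKM after IGF1. Control replicate 2 lay within the range of the IGF1 libraries, so the groups overlapped, and the log2 fold change of 0.76 (SE 0.36, limma adjusted p = 0.126) was not called. Mxd3 was called higher without control replicate 2, at 1.18 (SE 0.07, limma adjusted p = 6.3e-08), but not once trends with gene length and GC content were also removed, at 0.81. Its gene shares bases with Prelid1 on the opposite strand, and whether reads were counted by strand is not given in the sources used here.

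Mxd4 (chr5:34173883-34187720, minus strand, GRCm38), known from differentiating and resting cells, was at 9.48, 18.1 and 8.63 FPKM in control and 19.9, 21.4 and 22.2 FPKM after IGF1. Here each IGF1 library lay above each control library. Mxd4 had a log2 fold change of 0.83 (SE 0.27, limma adjusted p = 0.063), not called, and without control replicate 2 it was 1.14 (SE 0.06, limma adjusted p = 5.0e-08), called higher. With the length and GC trends removed it was 1.11 over all libraries (limma adjusted p = 0.0688), also not called. An antisense gene, Gm42846, overlaps Mxd4.

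Mxi1, also called Mxd2 and known as a candidate tumor suppressor, went the other way. Mxi1 (chr19:53310518-53375810, plus strand, GRCm38) was at 11.1, 5.77 and 11.3 FPKM in control and 4.10, 4.78 and 4.66 FPKM after IGF1, each IGF1 library below each control library. The log2 fold change was -0.86 (SE 0.26, limma adjusted p = 0.0553), not called, and without control replicate 2 it was -1.14 (SE 0.07, limma adjusted p = 1.4e-07), called lower. It was not called without that library under quantile normalization (-0.76) or 75th percentile scaling (-0.84), nor with the length and GC trends removed (-0.65). Gm10197 and AC133451.2 lie on the opposite strand within the locus.

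Mxd1 (chr6:86647042-86669161, minus strand, GRCm38), the MAD protein known for its induction in late myeloid differentiation, had control replicate 2 outside both groups. Its level was 6.54, 1.79 and 5.38 FPKM in control and 3.86, 3.46 and 3.10 FPKM after IGF1. Control replicate 2 lay below every IGF1 library and the other controls above them, so the groups overlapped. Mxd1 had a log2 fold change of -0.20 (SE 0.38, limma adjusted p = 0.666), close to the median of all genes, and its sign turned under quantile normalization (0.01), 75th percentile scaling (0.01) and with the length and GC trends removed (0.05). Leaving out control replicate 2 gave -0.64 (SE 0.10), short of the fold threshold.

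**Figure D2:**
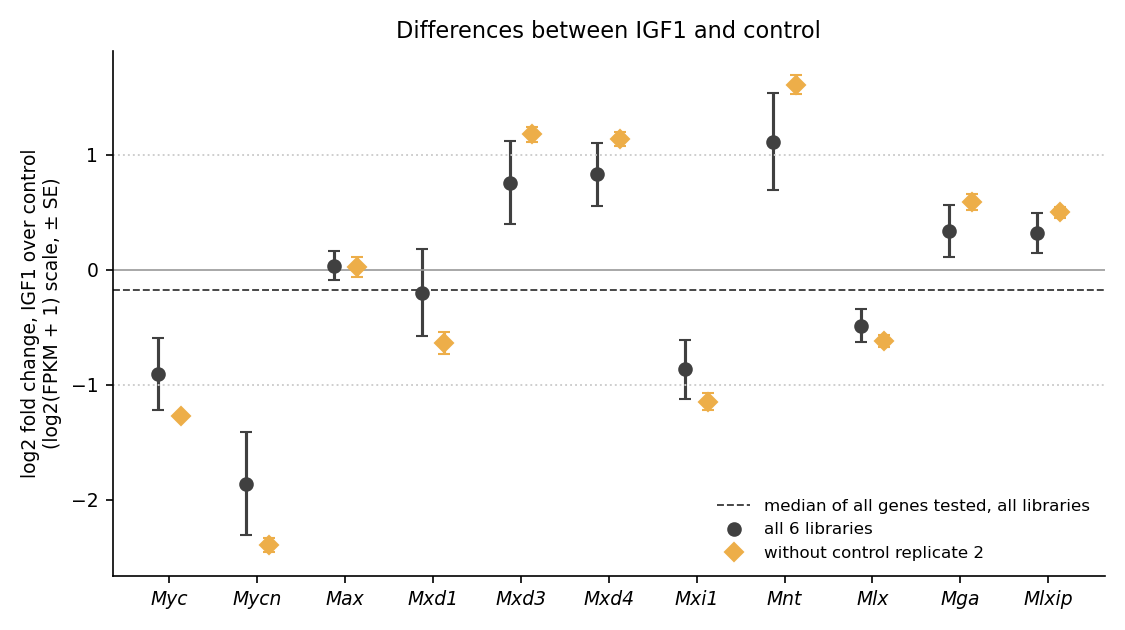
Log2 fold change of IGF1 over control on the log2(FPKM + 1) scale with its SE, for the 9 members tested and for Mga and Mlxip, from all 6 libraries (circles) and without control replicate 2 (diamonds). Dotted lines mark the fold threshold of 2 and the dashed line the median of all genes tested, -0.18. Mycn and Mnt pass a dotted line in both fits, and Myc, Mxd3, Mxd4 and Mxi1 pass it only without control replicate 2; of the circles, that of Mycn alone also has an adjusted p under 0.05.

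Mlx, the hub of the parallel arm that pairs with MXD1, MXD4, MNT and the glucose-sensing MLXIP and MLXIPL, was at 24.0, 18.4 and 24.8 FPKM in control and 14.9, 16.6 and 15.2 FPKM after IGF1. Each IGF1 library of Mlx (chr11:101087277-101092207, plus strand, GRCm38) was below each control library. The log2 fold change was -0.49 (SE 0.14, limma adjusted p = 0.0547) and -0.62 without control replicate 2 (SE 0.05, limma adjusted p = 2.2e-06), short of the fold threshold in both. Over all libraries it was -0.17 with quantile normalization (limma adjusted p = 0.178) and -0.24 with 75th percentile scaling (limma adjusted p = 0.0914). With quantile normalization and without control replicate 2 it was -0.19. Mlx overlaps Psmc3ip on the opposite strand. The level of Mlx relative to that of Max was between 1.94 and 2.56 in control and between 1.34 and 1.90 after IGF1.

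Of the 3 further partners, Mga, a very large MAX-binding protein and part of a Polycomb complex, was at 2.56, 4.91 and 2.44 FPKM in control and 4.17, 4.26 and 4.39 FPKM after IGF1. Mlxip was at 11.6, 16.8 and 11.1 FPKM in control and 16.7, 16.2 and 16.5 FPKM after IGF1. In both, control replicate 2 lay above all IGF1 libraries, and neither was called (log2 fold change 0.34 for Mga, limma adjusted p = 0.247, and 0.32 for Mlxip, limma adjusted p = 0.162) in either fit. Mlxipl, the carbohydrate response factor of liver, had 0 to 4 reads a library and was not tested.

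The order of the levels differed between the groups. In control the order by mean FPKM was Myc, Mycn, Mlx, Mxd3, Mxd4, Max, Mxi1, Mxd1, Mnt and Mycl, and, apart from Myc over Mycn and Mnt over Mycl, neighbours in this order had overlapping ranges. After IGF1 it was Myc, Mxd3, Mxd4, Mlx, Max, Mycn, Mnt, Mxi1, Mxd1 and Mycl, and of these neighbours the ranges of Mycn and Mnt alone overlapped. Mycn thus stood second in control, at a mean of 25.6 FPKM, and sixth after IGF1; in control replicate 2, at 10.3 FPKM, it stood below Myc, Mxd3, Mlx and Mxd4.

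Set against each other in summed FPKM, the activating class was lower and the repressing class higher in each IGF1 library than in each control library. The total FPKM of all listed genes was also lower in control replicates 1 and 3 than in the other libraries. The class sums were not scaled to this total, so whether the share of either class in it differed was not tested. The summed level of Myc, Mycn and Mycl was 386, 174 and 385 FPKM in control and 153, 149.9 and 151 FPKM after IGF1. The summed level of the repressing members was 38.8, 58.5 and 37.9 FPKM in control and 62.1, 59.3 and 61.6 FPKM after IGF1. For this class, control replicate 2 lay just under the lowest IGF1 library. Activating over repressing was thus 9.95, 2.98 and 10.1 in control and 2.46, 2.53 and 2.46 after IGF1: each IGF1 library lay below each control library, and control replicate 2 lay closer to the IGF1 libraries than to the other controls. On the log2 scale the ratio was 2.74 ± 1.01 in control and 1.31 ± 0.02 after IGF1 (SD, n = 3 each), a difference of -1.43, and of -2.02 without control replicate 2. No test was run on this ratio, which sums chosen genes; its difference lay between -2.08 and -1.13 when 1 choice or 1 library was altered at a time, and was -2.97 with quantile normalization and without control replicate 2 together.

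The makeup of the repressing class differed as well. The leading repressing transcript was Mxi1 in control replicate 1, at 28.5% of the class, and Mxd3 in control replicate 3, at 30.8%. After IGF1, Mxd3 led in each library with between 41.6% and 45.6%, Mxd4 held between 32.1% and 36.1%, Mnt between 8.35% and 9.45%, Mxi1 between 6.60% and 8.06% and Mxd1 between 5.03% and 6.22%. In control replicate 2 Mxd3 held 47.9% and Mxd1 3.07%.

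**Figure D3:**
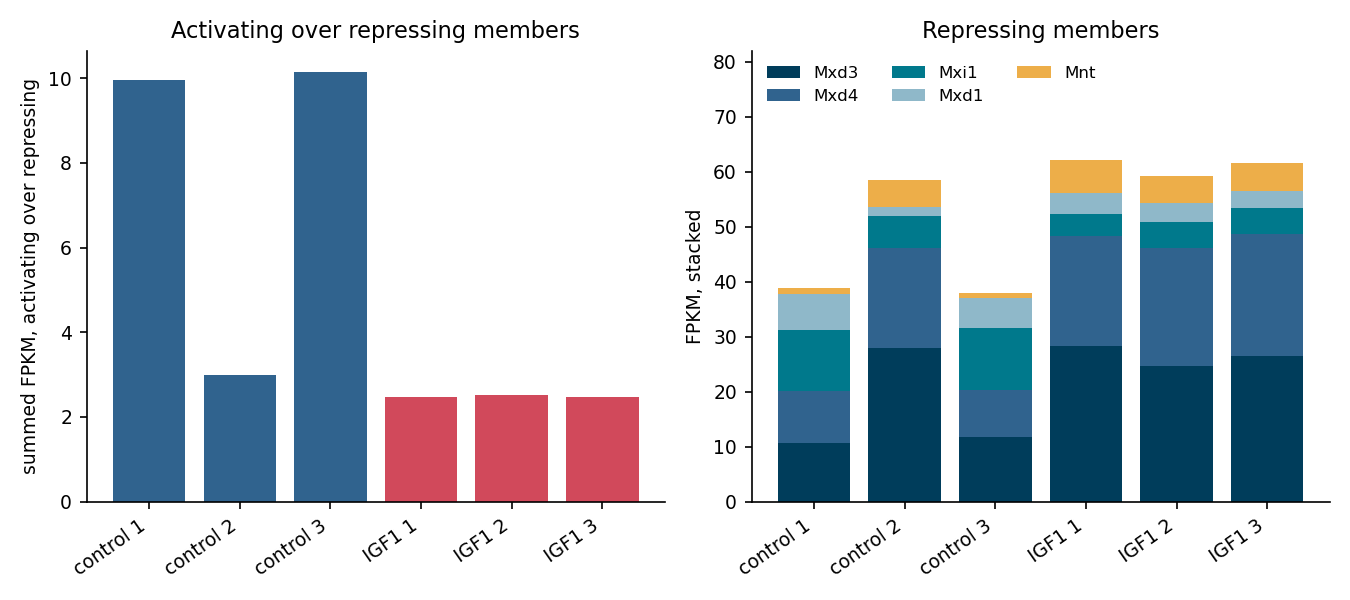
Left, summed FPKM of the activating members over that of the repressing members in each library (control in blue, IGF1 in red). Right, FPKM of the 5 repressing members, stacked, in each library. The ratio is near 10 in control replicates 1 and 3 and between 2.46 and 2.98 in the other libraries, and Mxd3 and Mxd4 fill most of the taller bars.

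Of the 10 single pairs of Myc or Mycn with a repressing member, the ratio was lower in every IGF1 library than in every control library for 9. These pairs share 2 numerators and are not independent, and the groups of 59.4% of all single genes did not overlap either. Myc over Mnt was 303, 34.0 and 361 in control and 24.9, 28.9 and 28.3 after IGF1. Mycn over Mxd1 was 5.15, 5.75 and 6.11 in control and 1.44, 1.69 and 1.68 after IGF1, and here control replicate 2 lay with the other controls. The exception was Myc over Mxi1, at 31.8, 28.3 and 31.2 in control and 35.7, 30.0 and 31.3 after IGF1, a ratio whose groups overlapped while both levels differed between the libraries.

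Promoter windows from RefSeq (GRCm38.p6), each from 250 bases before to 50 bases after a start site, were found for 9 of the 10 members, in 11 windows; Myc had none in the table. The palindrome CACGTG, the E-box bound by MYC-MAX and by MXD-MAX, was present once in the windows of Max, Mlx, Mnt and Mxd4 and is held by 7.17% of 32544 distinct windows. The letters TTTGGCGC, a form of the E2F site, occurred at 2 places in the Mycn window and are held by 0.519% of windows on either strand; the other form searched, TTTCCCGC, held by 1.08% of windows, was in none of the members' windows. These motifs do not overlap each other. Mycn is shown because it was the member called, and Mnt and Mxd4 because they are the repressing members whose levels were higher in every IGF1 library. The capitals mark the 2 TTTGGCGC matches, 183 and 168 bases before the start site of Mycn, and the CACGTG match 123 bases before that of Mnt and 219 before that of Mxd4. The printed bases stop before the first annotated transcript base and cover chr12:12941915-12942086 (minus strand) for Mycn, chr11:74830674-74830919 (plus strand) for Mnt and chr5:34187721-34187960 (minus strand) for Mxd4.
Mycn: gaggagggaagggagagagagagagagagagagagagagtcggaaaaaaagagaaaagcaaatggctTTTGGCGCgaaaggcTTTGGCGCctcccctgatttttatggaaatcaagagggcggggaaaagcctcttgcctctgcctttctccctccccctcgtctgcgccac
Mnt: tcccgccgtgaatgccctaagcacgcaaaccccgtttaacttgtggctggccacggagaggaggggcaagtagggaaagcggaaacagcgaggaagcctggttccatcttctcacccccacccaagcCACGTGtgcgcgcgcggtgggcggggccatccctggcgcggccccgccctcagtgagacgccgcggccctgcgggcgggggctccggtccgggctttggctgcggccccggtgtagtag
Mxd4: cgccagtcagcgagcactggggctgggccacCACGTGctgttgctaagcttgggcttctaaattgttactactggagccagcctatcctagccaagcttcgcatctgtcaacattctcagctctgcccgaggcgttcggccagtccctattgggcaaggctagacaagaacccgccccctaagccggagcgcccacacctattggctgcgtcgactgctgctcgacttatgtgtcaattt

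A match is a description of these letters and not a bound site. Members with CACGTG were found on both sides: Mnt and Mxd4 were higher and Mlx lower in every IGF1 library, and Max overlapped.

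Genes around the network were read from 5 lists. Of 63 growth genes known to be activated by MYC, all tested, 4 were called lower and none higher, beside 4.63% and 1.98% of all genes, and the median log2 fold change was -0.44 beside -0.18 over all genes. The 4 were Las1l, for cutting the rRNA precursor (log2 fold change -1.37, limma adjusted p = 0.0363), Slc19a1, the folate carrier (-1.08, limma adjusted p = 0.0425), Hspd1, the mitochondrial chaperonin (-1.05, limma adjusted p = 0.0439), and Polr1b, a subunit of RNA polymerase I (-1.35, limma adjusted p = 0.0457). Hspd1, for instance, was at 287, 158 and 283 FPKM in control and 109, 117 and 113 FPKM after IGF1, with control replicate 2 between the groups. In 43 of the 63 genes the groups did not overlap, beside 59.4% of all genes. Leaving out control replicate 2, 23 were called lower and 3 higher, beside 20.6% and 12.3% of all genes, and the median was -0.58 beside -0.24.

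Of 15 genes known to be repressed by MYC, 13 were tested and none was called in either direction, beside 6.61% of all genes, with a median log2 fold change of -0.44. This median was -0.21 with quantile normalization and -0.088 with the length and GC trends removed. The smallest adjusted p values belonged to Cdkn1a, Gadd45b and Cdkn1b, whose fold changes were under the threshold of 2 on the log2(FPKM + 1) scale. Cdkn1a, which encodes the cell cycle inhibitor p21, was at 67.1, 69.1 and 67.4 FPKM in control and 111, 119.8 and 116 FPKM after IGF1 (log2 fold change 0.76, limma adjusted p = 0.0286). Gadd45b, a stress-response gene, was at 12.9, 14.5 and 12.8 FPKM in control and 25.6, 23.5 and 26.5 FPKM after IGF1 (log2 fold change 0.87, limma adjusted p = 0.0286). In both, control replicate 2 lay with the other controls. Cdkn1b, which encodes p27, was at 6.95, 12.3 and 6.76 FPKM in control and 18.2, 17.7 and 16.4 FPKM after IGF1 (log2 fold change 0.98, limma adjusted p = 0.0434). In the fit without control replicate 2, 1 gene of the list was called higher and 4 lower, beside 12.3% and 20.6% of all genes, with a median of -0.62.

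Of 18 tested MYC coactivators, none was called, beside 6.61% of all genes, and the median was -0.01, or 0.19 with quantile normalization. Ruvbl1, a helicase of the TIP60 complex (log2 fold change -0.77, limma adjusted p = 0.0372), Actl6a, an actin-related subunit of chromatin remodelers (-1.10, limma adjusted p = 0.0514), and Wdr5, which anchors MYC on chromatin (-0.70, limma adjusted p = 0.0552), had the smallest adjusted p values. The counts without control replicate 2 were 3 higher and 2 lower, beside 12.3% and 20.6% of all genes, with a median of -0.09.

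Of 17 corepressor genes of the SIN3 and NCOR complexes that MXD proteins recruit, 1 was called higher and 3 lower, beside 1.98% and 4.63% of all genes, with a median of 0.15. Those lower were Rbbp7 (389, 137 and 389.9 FPKM in control, 91.1, 97.2 and 91.8 FPKM after IGF1, log2 fold change -1.55, limma adjusted p = 0.0498), the related histone chaperone Rbbp4 (-1.22, limma adjusted p = 0.0412) and the deacetylase Hdac2 (-1.45, limma adjusted p = 0.0467). Ing2, which reads a histone mark for the SIN3 complex, rose from 8.65, 14.3 and 8.25 FPKM to 20.995, 23.7 and 22.4 FPKM (log2 fold change 1.07, limma adjusted p = 0.0369). Without control replicate 2, 2 were called higher and 4 lower, beside 12.3% and 20.6% of all genes, with a median of 0.27.

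Of 21 tested genes for MYC protein turnover, Skp2, a ubiquitin ligase subunit that targets MYC, was called lower (10.3, 4.36 and 10.6 FPKM in control, 2.41, 2.47 and 2.19 FPKM after IGF1, log2 fold change -1.41, limma adjusted p = 0.0415). Pim1, a kinase that stabilizes MYC, was called higher (12.9, 23.8 and 14.1 FPKM in control, 34.8, 34.5 and 33.1 FPKM after IGF1, log2 fold change 1.02, limma adjusted p = 0.0419). These counts stand beside 1.98% of all genes called higher and 4.63% lower. The median of the list was -0.41. With quantile normalization it was -0.19 beside -0.02 over all genes, and with 75th percentile scaling -0.19 beside 0.04. Without control replicate 2, 2 were called higher and 7 lower, beside 12.3% and 20.6% of all genes, with a median of -0.79. Plk1 is held by both this list and the list of growth genes.

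**Figure D4:**
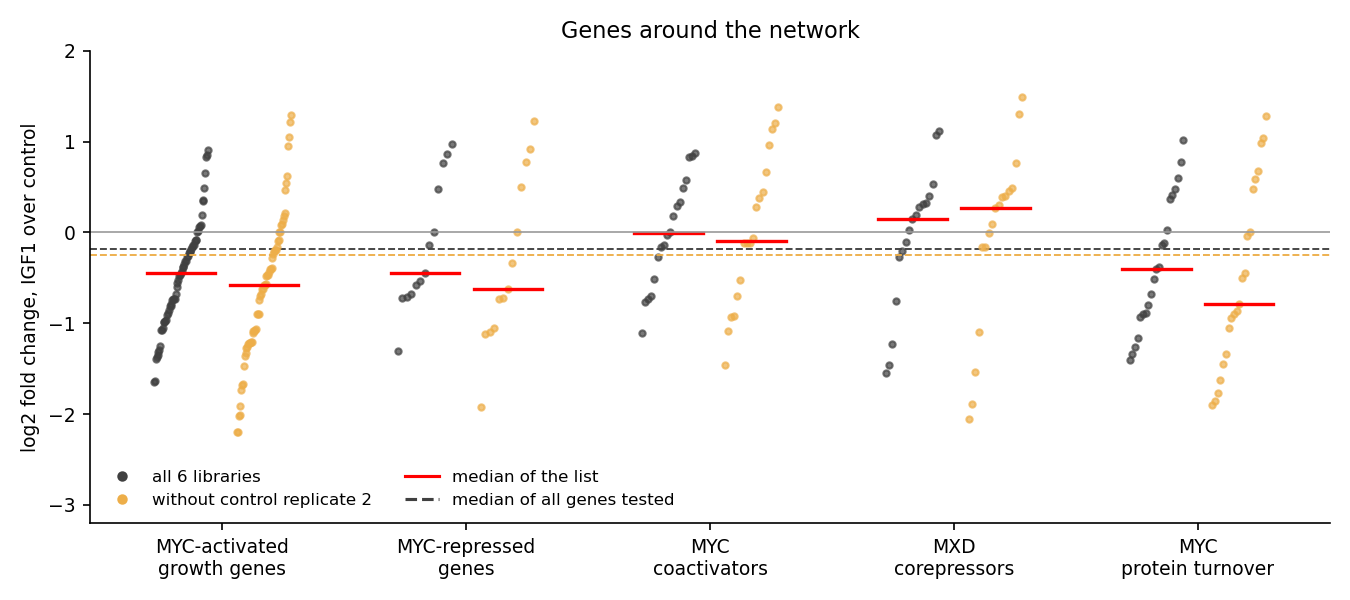
Log2 fold change of each tested gene (points) in the 5 lists around the network, from all 6 libraries (dark) and without control replicate 2 (yellow), with the median of each list in red and the median of all genes tested dashed. The medians of the growth genes (-0.44), the MYC-repressed genes (-0.44) and the turnover genes (-0.41) lie below the dashed line, and those of the coactivators and corepressors above it.

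The genes most like Myc over the 6 libraries, by Pearson correlation of log2(FPKM + 1) among 7336 other tested genes with a mean of at least 5 FPKM, were Hspa5, an ER chaperone, Spg20 and Fbxw11. Hspa5 was at 423, 187 and 422 FPKM in control and 166, 163 and 166 FPKM after IGF1, against 352, 163, 351, 146, 143 and 146 FPKM for Myc. Such likeness was common, since 1257 of these genes correlated with Myc above 0.99, and all of them share the split that sets control replicates 1 and 3 apart. The genes most like Mxd3, the most abundant repressing member by mean level, were the histone gene Hist1h3g, Emg1 and Tmub2, and 190 genes correlated with it above 0.99.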

How the data were processed

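The RNA of sorted HSCs was read from TruSeq Stranded mRNA libraries on an Illumina NovaSeq. The authors deposited 1 table of FPKM per library. The submitters' processing notes name fastp, HISAT2, StringTie and GRCm38 (mm10), the study's methods name RSEM, and which tool made the deposited values is not given in the sources used here; the unit was read from the value steps, which gave whole reads (within 0.01) for 99.9% of 14838 genes. Libraries are of unequal depth, and counting error grows at low FPKM.

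The test was limma (3.58.1, R 4.3.3) with a variance trend on log2(FPKM + 1), for genes of at least 1 FPKM in at least 3 libraries, which understates the change of low genes. Calls used the study's thresholds, more than 2-fold at an adjusted p (Benjamini-Hochberg) under 0.05. On simulated data of this comparison (10449 genes, 200 changed, SD 0.3 on the log2 scale, less than control replicate 2 brings to Mycn or Mnt), 93.5% of 2.5-fold changes were recovered with 0 false calls and 100.0% of 4-fold changes with 1. Exact permutation tests were 2-sided (scipy 1.17.1). Loci came from GENCODE M21.

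Replicates of a group differed by little more than sampling noise, except control replicate 2: the mean chi-square per gene was 1.52 between control replicates 1 and 3, 1.69 to 1.89 between IGF1 libraries and 229 to 231 between control replicate 2 and the other controls. The members, lists and tests were chosen with earlier results of these data known. Named genes were all members, Mga, Mlxip and Mlxipl, in each list the called genes (up to 6, by adjusted p) or otherwise the 3 with the smallest adjusted p, and the 3 genes most like Myc and the most abundant repressing member. Single cell type markers were named after their values were seen.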

Additional observations from a re-analysis of the deposited data

How the results depend on the processing

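Control replicate 2 decides how many genes and members are called. Leaving out a library gave between 0 and 3438 genes called, beside 691 from all 6, and between 0 and 6 members, the higher counts without control replicate 2 and 0 without any other; weighting libraries by quality gave 3435 genes and 6 members. Without that library, removing length and GC trends gave 2146 genes and 4 members, quantile normalization 2899 and 5, and 75th percentile scaling 3110 and 4; these and the voom fits were chosen after seeing the data. No filter on low values gave 374 genes and 0 members, a pseudocount of 5 gave 223 genes, length and GC trends removed 315, and voom on recovered reads 1059. Calls split into 207 higher and 484 lower, against 301 and 260 with 75th percentile scaling, 304 and 319 with quantile normalization and 160 and 155 with length and GC trends removed, where the median of all genes moved to 0.04, -0.02 and -0.04.

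The replicate block, alone or with length and GC trends removed, gave 0 genes and 0 members (4791 genes at an unadjusted p under 0.05, 4298 with the trends removed); same-numbered libraries did not deviate together (correlations -0.06, -0.05 and 0.01), so the numbers give no pairing. Without control replicate 1, 3 or an IGF1 library, 2982 to 3205 genes had an unadjusted p under 0.05. The log2 fold change of Mxd1 turned from -0.20 to 0.0071 with quantile normalization, 0.013 with 75th percentile scaling and 0.0098 with voom and quantile normalization. It was 0.053 with length and GC trends removed, with or without the block, and -0.65 with libraries weighted by quality. Among fits that left out a library, the log2 fold change of Mxd1 ranged from -0.637 without control replicate 2 to 0.079 without control replicate 1. When a library was left out, that of Max ranged from -0.042 without IGF1 replicate 1 to 0.122 without IGF1 replicate 2. The activating over repressing difference ranged from -2.02 to -1.13 when a library was left out. The median of the MYC-repressed genes ranged from -0.62 to -0.088 over all settings. The cause of these shifts was not tested.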
